A study of Rattus norvegicus with 10 samples.

Results

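Mitochondrial ribosomal protein genes were examined in the livers of 10 rats, 5 given mulberry leaf and 5 controls. They were taken by name: a probe set counted if the platform annotation gave it exactly 1 gene symbol that begins with Mrpl or Mrps and a digit, and each gene was represented by its probe set with the highest mean signal over the 10 arrays. This gave 73 genes of the 14217 with 1 symbol on the array, 46 with an Mrpl symbol and 27 with an Mrps symbol, drawn from 97 probe sets. Treatment took no part in that choice. Mulberry rats were of the Wistar/ST stock, ate a high-fat diet and received 500 mg per kg per day of powdered dried mulberry leaf through a gastric probe, as a suspension in carboxymethylcellulose. Control rats were of the same stock, ate the same high-fat diet and received none of the powder (0 mg per kg per day). Livers were taken from both groups after 7 weeks, with 1 Affymetrix array per animal. Sex and age are not given in the sources used here, and no group ate a standard diet, so the comparison concerns mulberry leaf on top of a high-fat diet.

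The mitochondrial ribosome sits in the matrix and translates the few proteins encoded in mitochondrial DNA, which are core subunits of the respiratory chain and of ATP synthase. Its RNAs come from mitochondrial DNA, while all its proteins are encoded in the nucleus, made in the cytosol and imported. Its large subunit joins amino acids and its small subunit reads the messenger RNA. In liver, a tissue rich in mitochondria, the output of respiratory chain complexes depends on this machinery keeping pace with nuclear genes for the other subunits. Symbols follow older naming in places: in mammalian mitochondrial ribosomes the proteins of Mrps18a and Mrps30 are built into the large subunit. The groups below go by symbol.

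Deposited values were linear signal intensities, scaled so that the trimmed mean was 500.0 on every array. Array medians lay between 97.5 and 118. Pairs of arrays correlated at 0.957 to 0.975 over all probe sets, averaging 0.966 for rats of the same group and 0.967 for rats of different groups. The 9 hepatocyte markers measured summed to between 216272 and 264855 in mulberry rats and between 217056 and 257179 in control rats, so the defining genes of liver were abundant on every array. In whole liver, fewer cells of a type and less RNA per cell cannot be told apart. All 73 genes were well within the measured range. Their lowest value on any array was 287, for Mrpl38 in mulberry rat 1, against a filter level of 61.1, so all 73 were tested.

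Promoters of 5 of these genes are shown first, picked from the values reported below or as paralogs. The motifs were not related to those values. Mrps27 and Mrps18b had the smallest p-values, Mrps18a, Mrps18b and Mrps18c are paralogs, and Mrpl57 varied most between animals. Each window runs 5′ to 3′ over 300 bases, 250 before the gene's start and 50 from it, taken from RefSeq on the assembly GRCr8. Capitals mark exact matches on either strand to 3 motifs, those of factors known from cultured cells to drive nuclear genes for mitochondrial proteins. They are the palindromic NRF1 consensus, the core letters CCGGAAG of GABP, an ETS factor, and the letters AAGATGGC of YY1. The motifs can overlap each other.
Mrps27 promoter, GRCr8 chr2:32473954-32474253, plus strand: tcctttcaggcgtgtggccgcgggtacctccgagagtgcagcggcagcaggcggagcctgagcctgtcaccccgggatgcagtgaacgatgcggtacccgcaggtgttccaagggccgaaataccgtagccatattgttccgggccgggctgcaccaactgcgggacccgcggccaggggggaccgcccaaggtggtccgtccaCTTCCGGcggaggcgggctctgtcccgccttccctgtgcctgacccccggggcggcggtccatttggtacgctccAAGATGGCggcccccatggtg
Mrps18a promoter, GRCr8 chr9:22367331-22367630, minus strand: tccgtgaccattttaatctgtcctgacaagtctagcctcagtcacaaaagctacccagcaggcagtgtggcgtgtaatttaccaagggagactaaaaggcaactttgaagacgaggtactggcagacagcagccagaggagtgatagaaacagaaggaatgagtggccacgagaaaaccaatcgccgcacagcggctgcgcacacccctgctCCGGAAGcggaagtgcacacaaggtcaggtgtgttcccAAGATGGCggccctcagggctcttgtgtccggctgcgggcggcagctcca
Mrps18b promoter, GRCr8 chr20:2842756-2843055, plus strand: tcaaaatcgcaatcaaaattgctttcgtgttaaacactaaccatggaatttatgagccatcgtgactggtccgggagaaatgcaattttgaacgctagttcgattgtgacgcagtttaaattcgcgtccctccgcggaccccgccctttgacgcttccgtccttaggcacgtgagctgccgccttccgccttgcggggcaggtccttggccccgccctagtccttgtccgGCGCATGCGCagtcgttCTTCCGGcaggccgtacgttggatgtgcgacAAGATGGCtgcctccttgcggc
Mrps18c promoter, GRCr8 chr14:9122857-9123156, minus strand: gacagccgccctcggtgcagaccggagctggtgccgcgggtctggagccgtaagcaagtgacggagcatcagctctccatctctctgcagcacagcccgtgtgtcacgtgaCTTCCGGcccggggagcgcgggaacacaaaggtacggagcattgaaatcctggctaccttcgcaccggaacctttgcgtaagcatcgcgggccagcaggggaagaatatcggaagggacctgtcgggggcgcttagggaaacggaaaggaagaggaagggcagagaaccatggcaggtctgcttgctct
Mrpl57 promoter, GRCr8 chr15:36086207-36086506, plus strand: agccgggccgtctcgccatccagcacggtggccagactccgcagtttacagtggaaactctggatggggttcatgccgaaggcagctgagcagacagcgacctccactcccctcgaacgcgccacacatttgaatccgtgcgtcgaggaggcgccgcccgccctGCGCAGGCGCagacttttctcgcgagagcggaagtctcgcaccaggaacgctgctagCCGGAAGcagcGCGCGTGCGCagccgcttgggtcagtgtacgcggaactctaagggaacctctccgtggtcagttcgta

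Mrps18b held all 3 motifs, with the NRF1 match beginning 20 bases before the start, the GABP match 3 bases before it and the YY1 match 28 bases after it. In Mrps27 a GABP match began 46 bases before the start and a YY1 match 29 bases after it. Mrps18a had its GABP match 38 bases upstream and a YY1 match right at the start. Mrps18c had a single GABP match 139 bases upstream. In Mrpl57, NRF1 matches began 86 and 18 bases upstream, with a GABP match 29 bases upstream. The YY1 letters include ATG, so a match after the start can overlap a start codon.

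A promoter window was at hand for 59 of the 73 genes, and 33 of these (55.9%) held at least 1 of the 3 motifs. Over all 27457 genes with a window the share was 15.5%, and over the 8641 of them with a tested probe set it was 29.9%. By motif, GABP letters were in 20 of the 59 windows (33.9%, against 18.3% of tested genes and 9.22% of all), YY1 letters in 14 (23.7%, against 5.75% and 3.44%) and NRF1 letters in 9 (15.3%, against 10.3% and 4.71%). The TATA box (TATAAA) was in 7 windows (11.9%, against 7.19% and 14.3%). These are matches of letters, with no test. No window was at hand for Mrpl13, Mrpl15, Mrpl16, Mrpl19, Mrpl21, Mrpl35, Mrpl38, Mrpl43, Mrps12, Mrps22, Mrps24, Mrps28, Mrps34 and Mrps35.

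Differences between mulberry and control rats in the mitochondrial ribosomal protein genes were small. None of the 73 passed the test between groups, and 72 of them (98.6%) differed by less than 0.2 on the log2 scale, against 83.8% of all genes tested. The median size of the difference, sign aside, was 0.056 over the 73 genes and 0.083 over all genes tested. The exception, Mrps27, averaged 329 ± 19.3 in mulberry rats and 429.7 ± 58.4 in control rats (SD, n = 5 each). The median difference over the 73 genes was -0.012, against +0.0035 over all 10328 genes tested, each difference being that of the group means of log2(intensity + 16), with control subtracted. Of the 73, 32 had a higher and 41 a lower mean in mulberry rats, a split of 43.8% higher against 51.3% for all genes tested. All genes tested include dimmer ones, down to the filter level of 61.1. Sizes of difference were not set beside those of genes of like signal alone.

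The test was a linear model per probe set (limma, two-sided), and p-values were adjusted by Benjamini-Hochberg across the 18625 probe sets. At an adjusted p under 0.05, 0 of the 73 genes were called, against 0% of all genes, and the smallest adjusted p was 0.9999. At an unadjusted limma p under 0.05 there was 1 of the 73, Mrps27, a smaller share than the 1.79% of all genes and 1.74% of all probe sets. The number of genes higher in mulberry rats depended on single control animals. It was 18 without control rat 1, 20 without control rat 2 and 50 without control rat 3, where the median difference was +0.035. Aligning the arrays on their medians moved all genes alike, and the median over all genes tested was then -0.024, that of the 73 genes -0.039 and the number higher 20. It was 49 with limma's array weights, where the median difference was +0.036.

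A result that misses the threshold does not show equal levels, but the intervals bound the size of a difference. For 70 of the 73 genes the 95% confidence interval of the model lay within 0.5 of 0 on the log2 scale, a fold of 1.41, and for all 73 within 1. The 3 that reached past 0.5 were Mrps27 (-0.62 to -0.10), Mrpl57 (-0.33 to +0.63) and Mrps9 (-0.18 to +0.503). Standard errors lay between 0.080 and 0.22, with a median of 0.12. The pooled SD between rats of a group had a median of 0.18 over the 73 genes and 0.24 over all genes tested, which include dimmer ones.

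**Figure D1:**
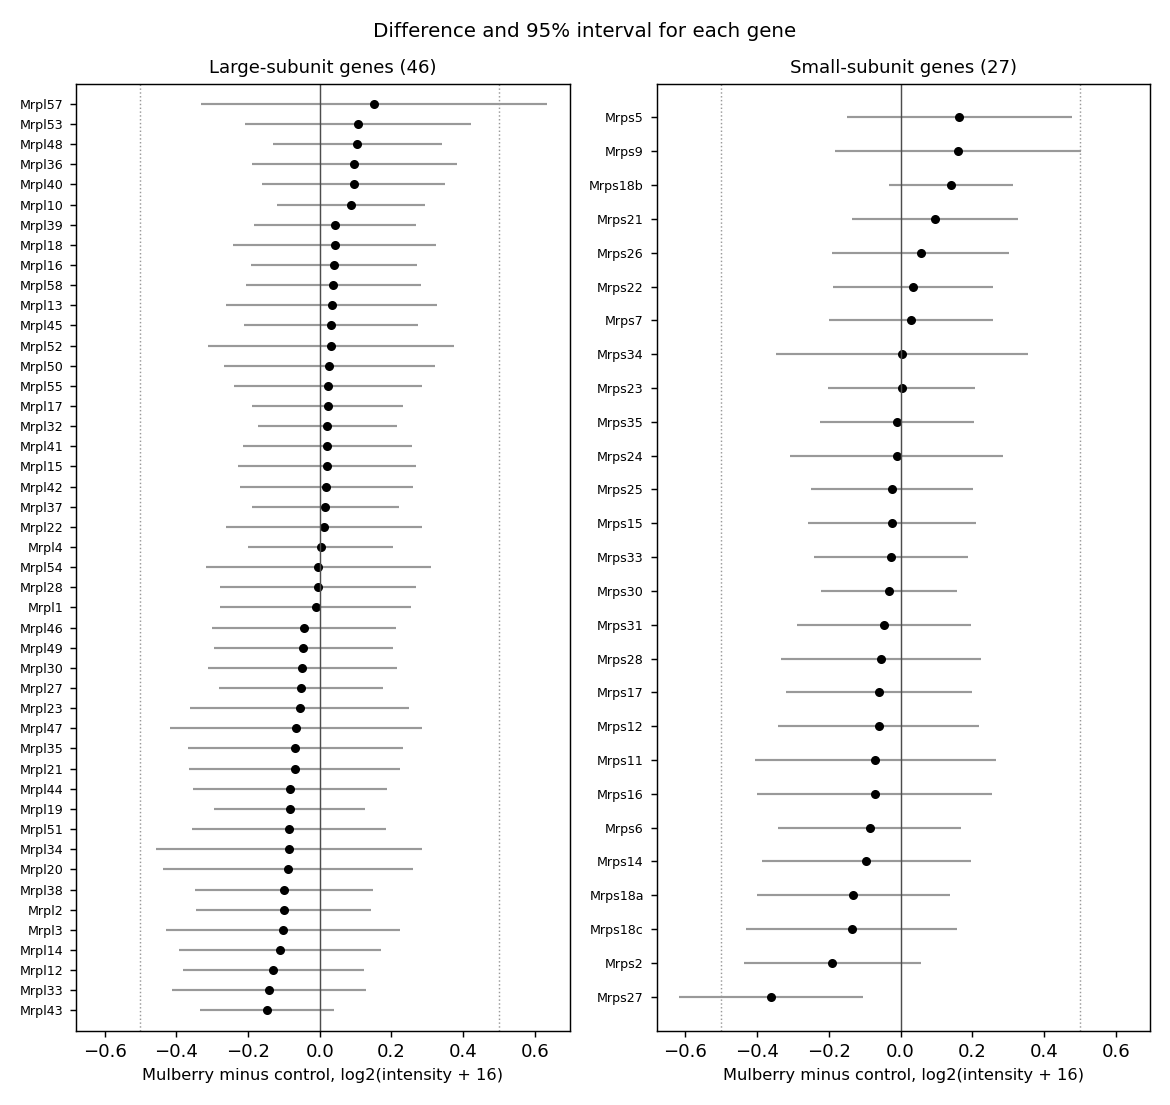
Difference between mulberry and control rats (log2 scale, horizontal axis) for each gene, large subunit at left and small subunit at right; points are estimates, bars 95% confidence intervals of the limma model, dotted lines -0.5 and 0.5. Only the bar of Mrps27 misses 0, and 70 of 73 bars stay between the dotted lines.

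Of the 46 large-subunit genes, 23 had a higher and 23 a lower mean in mulberry rats, with a median difference of -0.00036 and a range from -0.15 to +0.15. That split rested on single control rats, as 11 of the 46 were higher without control rat 1, 13 without control rat 2 and 31 without control rat 3. At the lower end was Mrpl43, at 3013, 3071, 2612, 2661 and 2612 in mulberry rats 1 to 5, against 3210.0, 3171, 3096, 3146 and 2838 in control rats 1 to 5. Its groups overlapped, since mulberry rats 1 and 2 lay above control rat 5 (difference -0.15 ± 0.086, SE, two-sided exact permutation p = 0.0556, unadjusted). Mrpl33 averaged 2505 ± 420.5 in mulberry and 2747 ± 306 in control rats (SD, n = 5 each), and its difference ranged from -0.22 to -0.067 with 1 rat left out. On the higher side, Mrpl48 was at 666, 698, 705, 750.1 and 694 in mulberry rats, against 585, 630.1, 792, 681 and 591 in control rats. All 5 mulberry rats lay above control rats 1, 2 and 5, while control rat 3 was the highest of all (+0.11 ± 0.11, or +0.067 to +0.17 with 1 rat left out).

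Proteins with defined places in the large subunit did not pass the test either. Mrpl10 anchors the stalk that recruits translation factors, and Mrpl12 forms that stalk and also binds the mitochondrial RNA polymerase. Mrpl10 averaged 1211 ± 51.3 in mulberry and 1142 ± 104 in control rats, and its second probe set differed in the same direction (+0.16 ± 0.12, SE). Mrpl12 averaged 2138 ± 233 in mulberry and 2347 ± 341 in control rats (-0.13 ± 0.12). Around the catalytic core and the exit tunnel, Mrpl3, in which human mutations cause cardiomyopathy, differed by -0.10 ± 0.15, the tunnel-exit protein Mrpl23 by -0.056 ± 0.14 and Mrpl45, which holds the ribosome to the inner membrane, by +0.032 ± 0.11. Mrpl44, a protein with an RNase III-like fold and a further human cardiomyopathy gene, differed by -0.083 ± 0.13, and Mrpl41 by +0.021 ± 0.11. The signs for Mrpl23, Mrpl45, Mrpl44 and Mrpl41 each turned when 1 rat was left out. Without control rat 3 the difference was -0.023 for Mrpl3 and -0.054 for Mrpl12, and without control rat 1 it was -0.20 and -0.18.

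Small-subunit symbols held the 3 differences that were largest in size, Mrps27, Mrps2 and Mrps5. Of the 27 genes, 9 had a higher and 18 a lower mean in mulberry rats, with a median of -0.026. Without control rat 3, 19 of the 27 were higher and the median was +0.031. With array weights 19 were higher as well.

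Mrps27, which encodes a pentatricopeptide repeat protein of the small subunit, was measured at 342, 299, 338, 321 and 345 in mulberry rats 1 to 5, against 505, 355, 430.2, 395 and 464 in control rats 1 to 5. Every mulberry rat was below every control rat, the closest being mulberry rat 5 and control rat 2. The difference was -0.36 ± 0.12 (SE, 95% interval -0.62 to -0.10), with an unadjusted limma p of 0.00953 and an adjusted p of 0.9999. The two-sided exact permutation p was 0.00794, unadjusted, the smallest that 5 against 5 rats can give. Groups that do not overlap always give this p, so it only restates their separation. It was the only gene of the 73 whose groups did not overlap, against 33 of all 10328 genes tested (0.32%). The difference ranged from -0.42 to -0.30 with 1 rat left out at a time.

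Other probe sets for Mrps27 gave mixed values. One, with means of 189 in mulberry and 196 in control rats, differed by -0.056 ± 0.17 (SE). The other, with means of 34.9 in mulberry and 55.4 in control rats, was too dim to be tested and differed by -0.40. When the tested probe sets of the gene were combined by their median, leaving out the dim one, the difference was -0.21. The unadjusted limma p then no longer fell under 0.05. Over all 73 genes there were 24 further probe sets, of which 18 were tested. The sign was that of the chosen probe set in 11 of these and the opposite in 7.

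Of lists drawn up to check for other cells, the neutrophil list had 6 genes, of which 3 were on the array and 2 tested. Both of these, S100a8 and S100a9, had lower means in mulberry rats. Neither passed the adjusted threshold. An unadjusted limma p under 0.05 was found for 2 of 2, against 1.79% of all genes, but 2 genes are too few for a share. The summed intensity of the 3 on the array was 117 to 278 in mulberry rats and 273 to 371 in control rats, and S100a9 averaged 132 ± 41.3 in mulberry and 232 ± 31.0 in control rats (SD, n = 5 each). Of 10 macrophage and Kupffer cell markers, 7 were higher and 3 lower in mulberry rats, and 0 passed the adjusted threshold. At an unadjusted limma p under 0.05 there were 2, against 1.79% of all genes. Their summed intensity over the list was 12818 to 30439.7 in mulberry rats and 20394 to 28152 in control rats. Differences in this list ran from -0.96 for Lyz2 to +0.39 for Cd68. Among lymphocyte markers tested, 4 were higher and 1 lower in mulberry rats. The counts were 5 and 3 for endothelium, 6 and 3 for stellate cells, 1 and 1 for bile duct and 2 and 1 for red blood cells. In these lists 0 markers had an unadjusted limma p under 0.05. Whether the cell makeup of the livers had a part in the values of Mrps27 was not tested.

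Mrps2, the counterpart of a bacterial small-subunit protein, was at 757, 624, 568, 707 and 624 in mulberry rats, against 702, 712, 725, 886 and 721 in control rats. Control rat 4 stood above the other control rats, and the groups overlapped (-0.19 ± 0.11, two-sided exact permutation p = 0.0952, unadjusted). Its dimmer probe sets had the opposite sign, at +0.19 ± 0.23 and +0.10 ± 0.36 (SE). Mrps5, at the decoding side of the small subunit, was at 1322, 1573, 1646, 1218 and 1189 in mulberry rats, against 1170.1, 1350.1, 901, 1337 and 1463 in control rats. The lowest value was that of control rat 3, and without that rat the difference of +0.16 ± 0.15 was +0.054. The groups overlapped. Mrps9 had 1759.8, 1621, 1229, 1718 and 1813 in mulberry rats, against 1129.6, 1276, 2029, 1561 and 1367 in control rats, with both the lowest and the highest value among controls. Its difference of +0.16 ± 0.16 lay between +0.072 without control rat 1 and +0.28 without control rat 3.

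**Figure D2:**
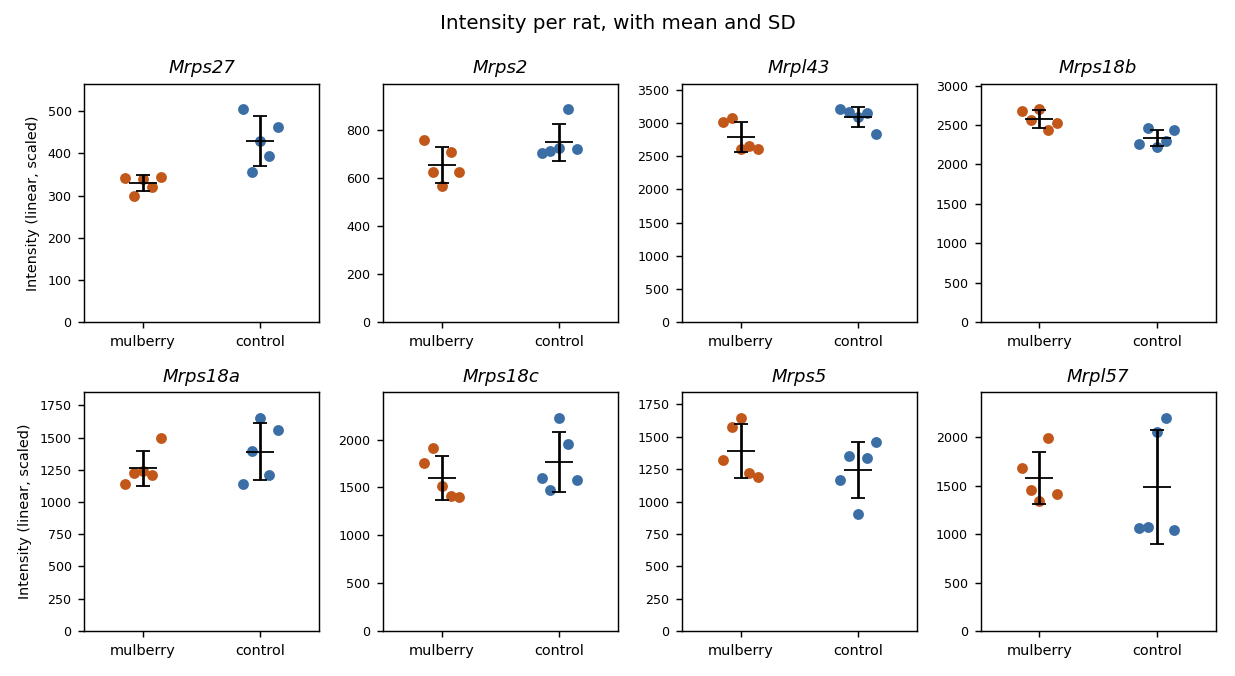
Signal intensity (linear, vertical axes from 0) of 8 genes in mulberry rats (left, orange) and control rats (right, blue); dots are rats, horizontal marks the mean and bars the SD of 5 rats. Groups are apart for Mrps27 alone, with at most 345 in mulberry and at least 355 in control rats, and Mrpl57 has 2 control rats at 2062 and 2202 and 3 between 1043 and 1078.

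The 3 Mrps18 paralogs did not pass the test, and the interval of each held 0. Mrps18b was at 2672, 2559, 2699.8, 2432 and 2520.2 in mulberry rats, against 2263, 2457, 2223, 2298 and 2438 in control rats. Its groups overlapped only where mulberry rat 4 fell below control rats 2 and 5. With a difference of +0.14 ± 0.080 and an unadjusted limma p of 0.103, it had the smallest SE and the smallest spread between rats of the 73 genes (two-sided exact permutation p = 0.0238, unadjusted).

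Mrps18a was at 1141, 1225, 1239.5, 1207 and 1495 in mulberry rats, against 1137, 1397, 1653, 1212 and 1559 in control rats (-0.13 ± 0.12). Mrps18c was at 1756, 1912, 1515, 1408 and 1401 in mulberry rats, against 1598, 1477, 2227, 1957 and 1573 in control rats (-0.14 ± 0.14). In both, control rat 3 was the highest of the 10 animals, whereas in Mrps18b it was the lowest. Without that rat the difference was -0.067 for Mrps18a and -0.049 for Mrps18c. A dimmer tested probe set for Mrps18c had the opposite sign (+0.14 ± 0.14, SE), so its direction is not settled. Differences between the paralogs were not tested.

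Other small-subunit genes chosen for their role did not pass the test either. Human mutations in the genes Mrps16 and Mrps22 cause respiratory chain deficiency. Mrps16 averaged 2705 ± 244 in mulberry and 2909 ± 753 in control rats (SD, n = 5 each), with 2381, 2304, 3964, 3452 and 2447 in control rats 1 to 5. The difference of -0.073 ± 0.15 was +0.048 without control rat 3. Mrps22 averaged 699 ± 72.4 in mulberry and 680.4 ± 31.2 in control rats (+0.034 ± 0.10), with the opposite sign without mulberry rat 4. Mrps12, a decoding-centre protein that bears on accuracy in bacteria, averaged 2353 ± 290.4 in mulberry and 2469 ± 430.1 in control rats (-0.061 ± 0.13, or +0.023 without control rat 3).

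Medians over the genes differed more between animals than between the groups. Relative to each gene's mean over the 10 rats, the median deviation of the 73 genes was 0.052, 0.019, -0.10, -0.023 and 0.011 in mulberry rats 1 to 5, against -0.15, -0.11, 0.25, 0.10 and -0.048 in control rats 1 to 5, on the log2 scale. The group averages of these medians were -0.0082 ± 0.058 in mulberry and 0.0066 ± 0.16 in control rats (SD, n = 5 each). The highest and the lowest of the 10 animals were both controls.

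Counted by gene, 47, 43, 21, 33 and 43 of the 73 lay above their own median in mulberry rats 1 to 5, against 12, 18, 63, 56 and 29 in control rats 1 to 5. Control rat 3 was the highest of the 10 animals for 37 of the 73 genes (50.7%), against 17.1% of all genes tested, and control rat 4 for 11 (15.1%, against 8.70%). The lowest animal was control rat 1 for 19 genes, control rat 2 for 12, and mulberry rats 3 and 4 for 11 each. Over all genes tested, the lowest animal was control rat 1 for 10.2%, control rat 2 for 7.40%, mulberry rat 3 for 8.73% and mulberry rat 4 for 17.0%. Control rat 3 was also the lowest for 15.7% of all genes tested, and for 3 of the 73. Large- and small-subunit genes showed the same order at the extremes. In control rat 3 the median deviation was 0.25 for each, and in control rat 1 it was -0.18 for the large and -0.11 for the small subunit.

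**Figure D3:**
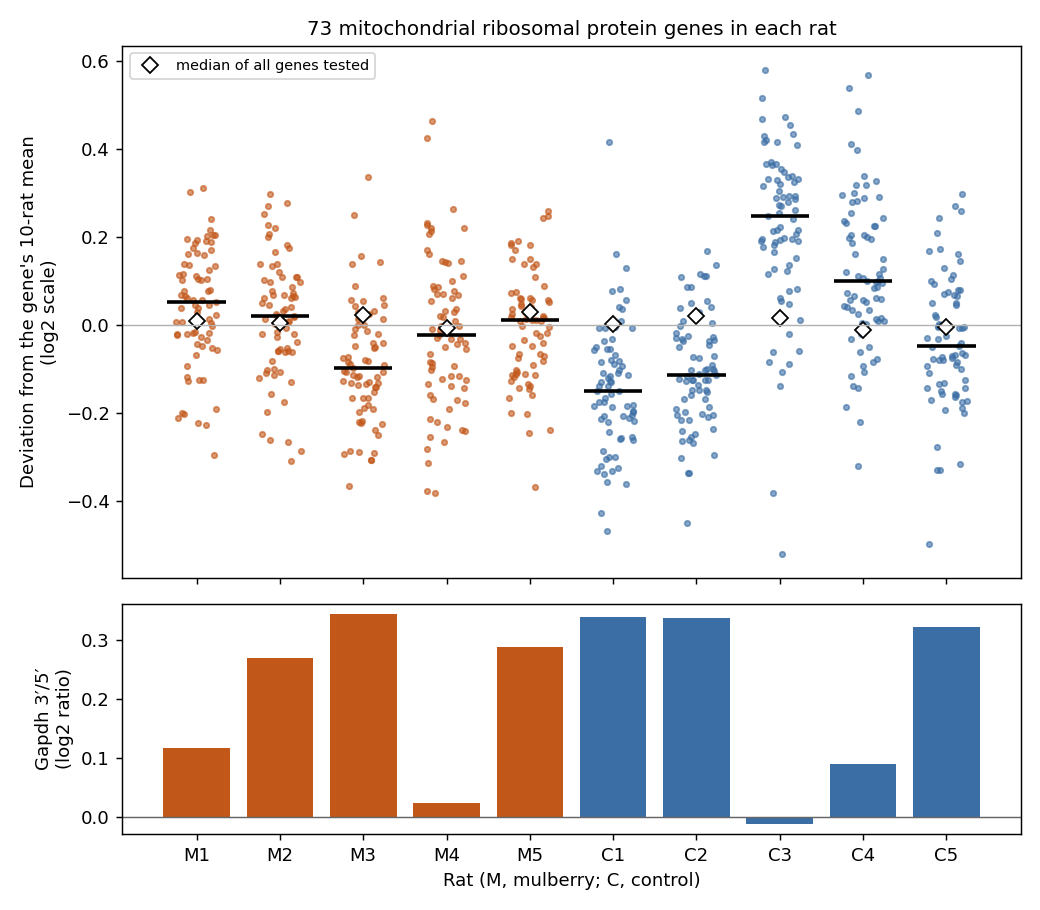
Upper panel: deviation of each of the 73 genes (dots) from its own mean over 10 rats, on the log2 scale, in mulberry rats (M1 to M5) and control rats (C1 to C5); bars are medians over the genes and diamonds medians over all genes tested. Lower panel: Gapdh signal, 3′ over 5′ probe set, as log2, on the same arrays. C3 has the highest median, 0.25, and the lowest ratio, -0.012.

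Medians over genes at large did not show this pattern. Every array was scaled to the same trimmed mean, which limits such medians in advance. Such medians therefore cannot show whether other genes varied by animal. The median deviation over all genes tested lay between -0.0079 and 0.029 in mulberry rats and between -0.013 and 0.021 in control rats. Over the 5410 other genes with mean signals in the same range as these 73, it lay between -0.044 and 0.025 in mulberry and between -0.015 and 0.023 in control rats. After quantile normalization the 73 genes still had 0.059, 0.0056, -0.093, -0.0042 and 0.010 in mulberry rats 1 to 5, against -0.16, -0.11, 0.26, 0.10 and -0.053 in control rats 1 to 5.

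The pattern ran beside a measure of RNA integrity, the signal of Gapdh at its 3′ probe set over that at its 5′ probe set, in which a higher value goes with more degraded RNA. As log2, that ratio was 0.12, 0.27, 0.34, 0.024 and 0.29 in mulberry rats 1 to 5, against 0.34, 0.34, -0.012, 0.090 and 0.32 in control rats 1 to 5. The 4 arrays with ratios of at most 0.12 were mulberry rats 1 and 4 and control rats 3 and 4, among them the 3 animals with the highest medians of the ribosomal genes. In the other 6 arrays the ratio was at least 0.27 and the median deviation at most 0.019. Mulberry rat 4, with a ratio of 0.024 and a median of -0.023, did not follow. The beta-actin ratio was 1.49, 1.95, 1.60, 1.29 and 1.86 in mulberry rats 1 to 5. In control rats 1 to 5 it was 1.67, 1.88, 1.51, 1.70 and 2.10. Its lowest values, 1.29, 1.49 and 1.51, were those of mulberry rats 4 and 1 and control rat 3, all among the 4 arrays low for Gapdh. The rest of its order was not that of the Gapdh ratio. Control rat 1, with the lowest median of the ribosomal genes, had 1.67, and control rat 4 had 1.70. The part of RNA integrity in the pattern was not tested.

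Other gene families of mitochondria and of translation, picked by symbol after these values were seen, had their highest level in the same animal. For 72 subunit genes of the respiratory chain and ATP synthase the median deviation was 0.073, -0.021, -0.13, 0.059 and -0.074 in mulberry rats 1 to 5, against -0.10, -0.15, 0.27, 0.19 and -0.090 in control rats 1 to 5. For 42 genes of the cytosolic ribosome it was 0.15, -0.050, -0.11, 0.078 and -0.027 in mulberry rats, against -0.050, -0.13, 0.24, 0.013 and -0.12 in control rats. Control rat 4, high for the respiratory chain (0.19) and the mitochondrial ribosome (0.10), was at 0.013 for the cytosolic ribosome. Differences between the families were not tested.

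Single genes followed the animals to unequal degrees. Mrpl57, named here for its spread, was at 1689, 1452, 1341, 1995 and 1414 in mulberry rats, against 1065, 1078, 2062, 2202 and 1043 in control rats. Control rats 3 and 4 lay above, and control rats 1, 2 and 5 below, all mulberry rats. Its second probe set differed between the groups by +0.13 ± 0.15 (SE), beside +0.15 ± 0.22 for the first. With 1 rat left out at a time, the first ranged from +0.046 without control rat 5 to +0.31 without control rat 4. Mrpl20 stood furthest up in control rat 3, by 0.58 above its mean, with 2777, 2739.5, 2320.1, 2863 and 2455 in mulberry rats, against 2145, 2358, 4052, 3378 and 2448 in control rats.

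A few genes went the other way. Control rat 3 had the lowest of the 10 values for Mrps5, by 0.52 under its mean, for Mrpl1, by 0.38, and for Mrps18b, by 0.14. Mrpl1 was at 1426, 1539, 1438, 1221 and 1349 in mulberry rats, against 1478, 1433, 1067, 1429.8 and 1675 in control rats. For Mrps27 the highest animal was control rat 1, the lowest of all for 19 of the 73 genes.

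**Figure D4:**
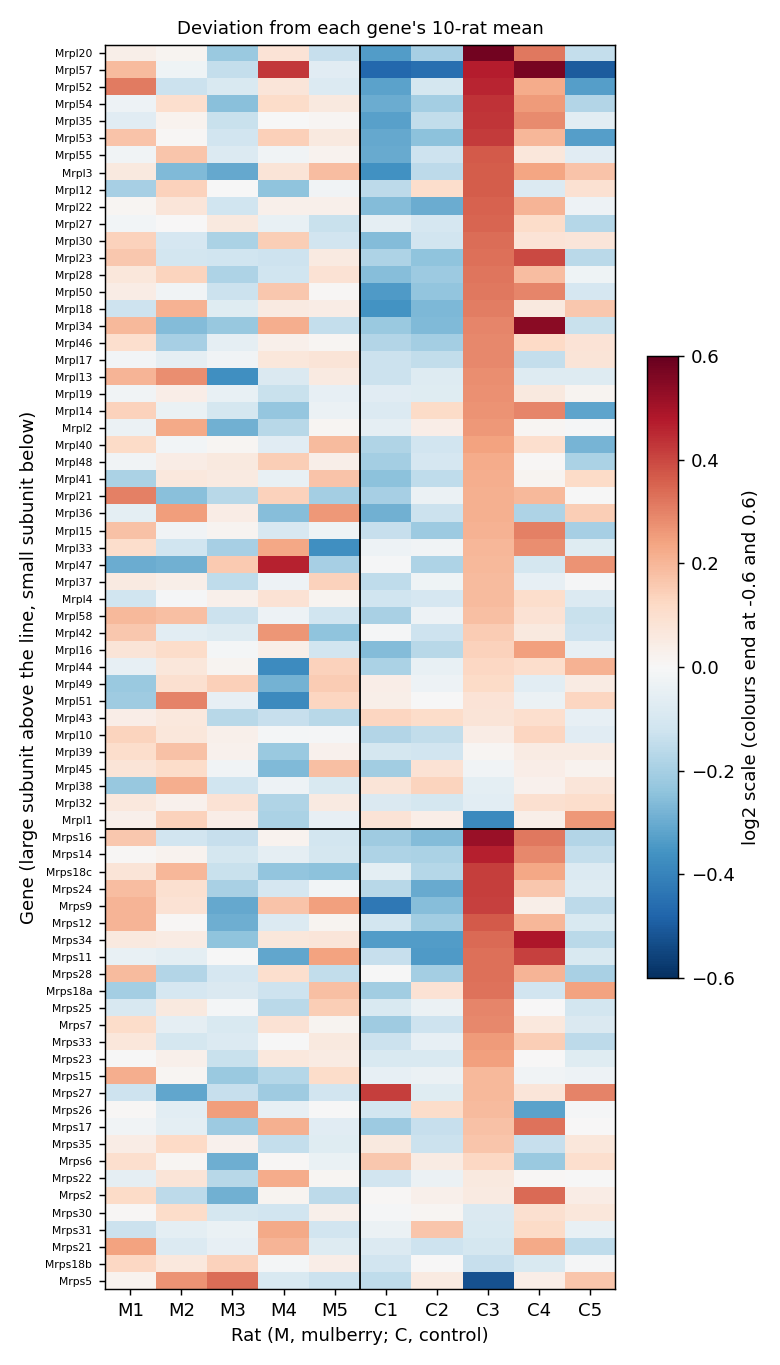
Deviation of each gene (rows) from its own mean over 10 rats, in mulberry rats (M1 to M5, left) and control rats (C1 to C5, right); red is higher and blue lower on the log2 scale, and rows are sorted by the value in C3 within each subunit. The columns of C3 and C4 are mostly red and those of C1 and C2 mostly blue, with no common shift between left and right.

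Some of these genes start head to head with a neighbour, on opposite strands with starts at most 500 bases apart. Of the 59 with a promoter window, 15 (25.4%) had such a neighbour, against 8.79% of all 27457 genes, in 14 pairs with 44 to 425 bases between the starts. The share over genes with a tested probe set, a closer comparison, was not computed. A partner with a tested probe set was at hand for 10 pairs. Both genes differed in the same direction in 8 of these and in opposite directions in 2, and no partner had an unadjusted p under 0.05 (limma). How often other head-to-head pairs share a direction was not counted. A pair of genes of the ribosome itself starts in this way: Mrpl46 differed by -0.044 ± 0.12 and Mrps11, 234 bases away, by -0.070 ± 0.16. In control rats 3 and 4 Mrps11 had 1809 and 1912, and Mrpl46 had 996 and 883, the 2 highest values of the 10 rats for each.

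The partner of Mrps27, 91 bases away, is Ptcd2, which encodes another pentatricopeptide repeat protein of mitochondria. Ptcd2 was at 317, 288, 304, 279 and 247 in mulberry rats, against 344, 262, 329.7, 341 and 249 in control rats. Its groups overlapped, and its difference was -0.076 ± 0.13 (two-sided exact permutation p = 0.500, unadjusted), against -0.36 ± 0.12 for Mrps27. Helq, a DNA helicase gene 72 bases from Mrps18c, averaged 114 ± 22.1 in mulberry and 102 ± 23.9 in control rats (+0.15 ± 0.19).

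Genes that serve the mitochondrial ribosome, in 5 lists drawn up by function, did not pass the test either. Of 13 translation factors tested, 7 were higher and 6 lower in mulberry rats, with a median of +0.019. Gfm2, a factor for ribosome recycling, was at 309.8, 288, 371, 316 and 248 in mulberry rats, against 274, 321, 247, 253 and 222 in control rats, with overlapping groups (+0.21 ± 0.14). Of 18 genes for mitochondrial aminoacyl-tRNA synthetases and related enzymes, 8 were higher and 10 lower (median -0.019). There Aars2, which charges the alanine tRNA, averaged 133 ± 31.9 in mulberry and 161 ± 24.5 in control rats (-0.27 ± 0.18).

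Of 24 genes for ribosome assembly and partner proteins, 10 were higher and 14 lower in mulberry rats (median -0.027). Mterf3, a repressor of mitochondrial transcription that also acts in ribosome assembly, had 1629, 1817, 1489, 2261 and 1734 in mulberry rats, against 2035, 1972, 2007, 1962 and 2439 in control rats. Only mulberry rat 4 reached the control values (-0.23 ± 0.12, two-sided exact permutation p = 0.0952, unadjusted). In this list Dhx30, an RNA helicase of ribosome assembly, was the 1 gene whose groups did not overlap, against 0.32% of all genes tested. It had 359, 312, 338, 371 and 363 in mulberry rats, against 388, 378, 387, 374 and 374 in control rats. The closest rats were mulberry rat 4 and control rats 4 and 5. The difference was -0.12 ± 0.10, with an unadjusted limma p of 0.248. Its two-sided exact permutation p of 0.00794, unadjusted, follows from the lack of overlap by which the gene was named. It adds no further support.

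Of 21 genes for mitochondrial DNA maintenance and transcription, 10 were higher and 11 lower in mulberry rats (median -0.0039). Slirp, which stabilises mitochondrial messenger RNA together with Lrpprc, averaged 1747 ± 187 in mulberry and 1956 ± 182 in control rats (-0.16 ± 0.10). Of 9 regulators of mitochondrial biogenesis, 4 were higher and 5 lower (median -0.0064). Myc, which also drives ribosome production, had the smallest p among them, with 221, 284, 174, 142 and 289.5 in mulberry rats, against 824, 289, 458, 261 and 339 in control rats. Mulberry rats 2 and 5 reached the lower control values. Its difference of -0.84 ± 0.29 had an unadjusted limma p of 0.0121 and an adjusted p of 0.9999, and it was -0.58 without control rat 1, the highest control. Over the 5 lists, 0 of 85 genes passed the adjusted threshold with limma, and 1, Myc, had an unadjusted p under 0.05, against 1.79% of all genes.

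**Figure D5:**
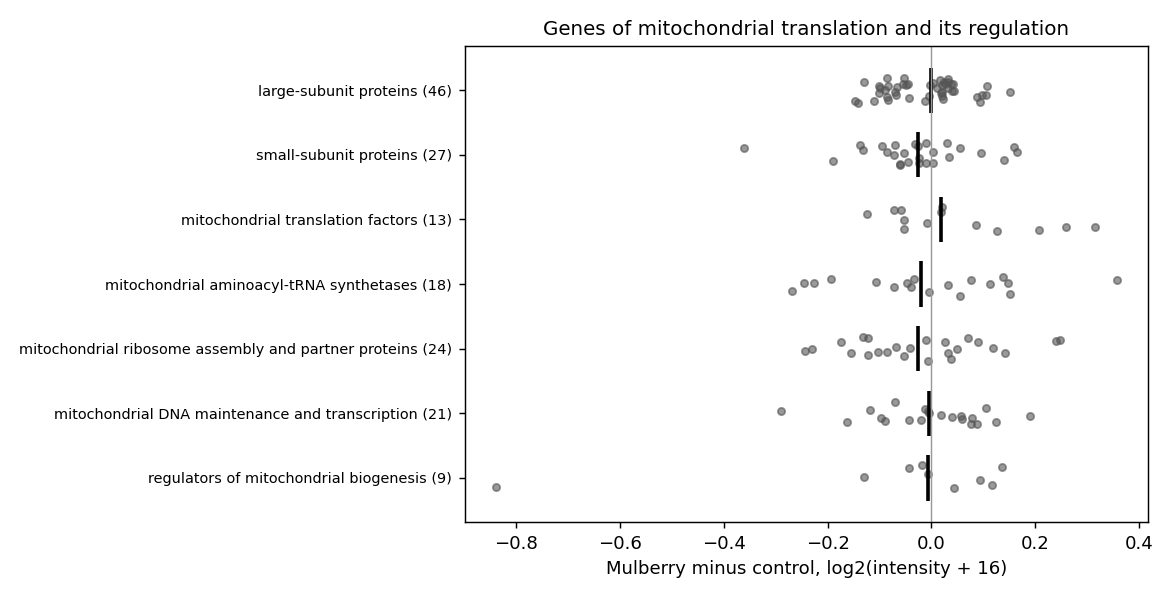
Difference between mulberry and control rats on the log2 scale (horizontal axis) for the ribosomal proteins by subunit and for the 5 lists of related genes, with numbers of genes in parentheses; dots are genes and bars medians. All 7 medians lie between -0.027 and +0.019, and the point at far left is Myc.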

How the data were processed

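Liver RNA of 5 mulberry and 5 control rats was measured on 1 array each. Values for 31099 probe sets were deposited in 1 table as linear intensity; MAS5 and affy are named, without version or role, per the submitters' processing notes. The mean after trimming 2% at each end was 500.0 on every array, and no other value columns were present, so intensities were used as scaled. The 57 control probe sets were left out. Values were taken as log2(intensity + 16), which understates differences of dim probe sets, and only probe sets whose mean exceeded the 40th percentile (6.27, or an intensity of 61.1) were tested.

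Mulberry was compared with control with limma 3.58.1 in R 4.3.3 (lmFit, eBayes with a variance trend), two-sided, over 18625 probe sets with Benjamini-Hochberg adjustment and a threshold of 0.05. The fit was tested on simulated data. For named genes, a two-sided exact permutation test of the rats was added. The number of arrays limits the precision. Python 3.11.15 with pandas 2.3.3, numpy 2.4.6 and matplotlib 3.10.9 made the tables and plots.

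Names came from the platform annotation, and all 73 genes matched RefSeq (GRCr8) by Entrez identifier. Groups and rat numbers came from the sample titles. The members, the lists and the tests were chosen with earlier results of these data known. Genes named were the 5 higher and 5 lower with the smallest unadjusted p, 13 chosen for their role, and 1 per related list, 25 in all. A further 8 were named after their values were seen. Alternatives were pseudocounts of 1 and 64, no filter, a 60th percentile filter, array weights, quantile normalization and alignment of array medians. Also run were eBayes without the trend, a gene's tested probe sets combined by their median, and rat number as a block. A threshold of 0.1 was used as well, and each array was left out in turn. Same-numbered rats did not deviate together.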

Additional observations from a re-analysis of the deposited data

Results flagged for a closer look

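In 4 of the 68 groups of 5 rats examined, 1 rat stood apart from the others by more than Dixon's 95% critical value of 0.71, where chance alone flags about 1 in 20 groups. Mrps9 was at 1229 in mulberry rat 3, against 1621 to 1813 in the other mulberry rats. Helq was at 76.5 in mulberry rat 3, against 114 to 132 in the other mulberry rats. Mrps2 was at 886 in control rat 4, against 702 to 725 in the other control rats. Mterf3 was at 2439 in control rat 5, against 1962 to 2035 in the other control rats. The median deviation of the 73 mitochondrial ribosomal protein genes had no such rat in either group, although control rat 3 was the highest of the 10 animals at 0.25.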

How the results depend on the processing

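With limma, 0 of the 73 genes and 0 probe sets overall passed the adjusted threshold under each alternative run, also at an adjusted p under 0.1 and with the replicate number as a block (0 genes). Rats share only a number: deviations of same-numbered pairs correlated between -0.33 and 0.096. The block left the same gene, Mrps27, as the only one of the 73 at an unadjusted p under 0.05 (1 gene). The median difference turned its sign when single control rats were left out, with a range of -0.054 to +0.035 for the 73 genes, -0.050 to +0.047 for the large and -0.057 to +0.031 for the small subunit when 1 rat was left out. Of 691 recomputed values of single named genes, 662 kept their sign and side of the threshold. The other 29 reversed in sign, in genes whose intervals hold 0, and the cause was not tested. With array weights these were Mrpl23 (+0.050), Mrps12 (+0.022), Mrps16 (+0.032), Mrpl20 (+0.013), Mrpl46 (+0.0048) and Mrps11 (+0.063). With the median over probe sets they were Mrps2 (+0.19) and Mrps18c (+0.0016), and with a median shift Mrpl41 (-0.0067). The median over probe sets takes in the dimmer tested ones, at +0.19 and +0.10 for Mrps2 and +0.14 for Mrps18c. With 1 rat left out, the ranges were -0.038 to +0.078 for Mrpl41, -0.016 to +0.10 for Mrpl45, -0.11 to +0.052 for Mrpl1, -0.12 to +0.037 for Mrpl23, -0.12 to +0.023 for Mrps12 and -0.15 to +0.048 for Mrps16. They were -0.18 to +0.044 for Mrpl20, -0.10 to +0.023 for Mrpl46, -0.16 to +0.024 for Mrps11, -0.14 to +0.0016 for Mrpl44 and -0.016 to +0.081 for Mrps22.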
